A study of Bos taurus with 12 samples.

Results

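The genes described here attach ubiquitin to proteins or take it off again. They were chosen by gene symbol: the E1 enzymes UBA1 to UBA7, the UBE2, UBE3 and UBE4 families, F-box proteins, cullins with SKP and RBX, the COP9 signalosome, and the USP and OTU proteases. FBXO5 was left out. Of 9155 genes with a symbol on the array, 106 met these patterns, and each was read from the probe set with its highest mean over all arrays. A filter on low values, a mean over 12 arrays above the 40th percentile of all probe sets, kept 93 of the 106. The symbols were matched by name, so a gene of the pathway with another symbol is outside the 106 and is counted separately below.

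Ubiquitin is a small protein that is activated by an E1 enzyme, handed to an E2 and joined to its target with the help of an E3 ligase. Chains of ubiquitin mark many proteins for the proteasome, and deubiquitinases cut them off. In oocytes the anaphase-promoting complex, a large E3 ligase, marks cyclin B and securin for destruction when the first polar body forms. SCF ligases join an F-box protein to a cullin, which is switched on by the ubiquitin-like protein NEDD8 and switched off when the COP9 signalosome removes it. ISG15, a further ubiquitin-like protein known from interferon responses, has its own E1 (UBA7), E2 (UBE2L6) and protease (USP18).

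RNA was measured on 12 Affymetrix bovine arrays, each with a pool of 50 oocytes of Japanese Black cattle stripped of their cumulus cells. The 4 groups of 3 pools were immature oocytes with a germinal vesicle (GV) from adult cows, GV oocytes from prepubertal heifers of 9 to 12 months, and metaphase II (MII) oocytes of the same 2 kinds of donor. MII oocytes had been matured in vitro inside their cumulus for 20 to 22 h and picked by their polar body. All oocytes came from follicles of 2 to 8 mm, of abattoir ovaries for the cows and of ovaries taken at farms for the heifers, so donor age and source cannot be told apart. No allele, strain difference or drug separates the groups. The pools of a group are called biological replicates in the labels, but no shared or separate animals are named.

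Signals are log2 values, and array medians lay between 5.64 and 8.30. Known oocyte genes were high on 9 arrays, with their 8 signals summing to 16.28 to 17.54 (log2 of the sum), and low on 3: GV adult replicate 1 (11.99), GV prepubertal replicate 1 (9.62) and MII prepubertal replicate 1 (10.91). On both prepubertal replicate 1 arrays all 8 oocyte genes lay below the 9 arrays. Above the 9 arrays on both lay 10 of 17 cumulus or granulosa markers, 8 of 11 markers of theca or stroma, and 0 of 9 of blood. CYP17A1, INSL3 and COL1A2 of the theca or stroma list were not above the 9 arrays on both. On these prepubertal arrays CYP17A1 read 4.34 and 1.14 (highest of the 9, 6.42), and INSL3 9.41 and 7.49 (7.86). The summed cumulus and granulosa signal was 17.49 and 18.20 there, 12.99 on GV adult replicate 1, and 12.36 to 14.50 on the 9. GV adult replicate 1 had a best Spearman correlation with another array of only 0.138 over kept probe sets. For the other arrays it was 0.553 to 0.852. GV adult replicate 1 also had the highest array median (8.30) and the highest mean of the Cre spike-in controls (21.28, against 17.255 to 19.954). Why this array stands apart was not tested. Results are therefore given over all 12 arrays and over the 9. In such pools a lower signal from fewer cells of a type and from less RNA per cell cannot be told apart.

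On the 9 arrays with an oocyte profile, 49 of 106 (46.2%) were above the array's median on every array, against 28.6% of all 9155 genes, and 3 on none. The lowest share above the median on a single array was 56.6% on GV adult replicate 1, followed by 65.1% on MII adult replicate 3. The other 10 arrays had 70.8% to 84.9%. All 9155 genes had their lowest shares on the same arrays, 51.8% and 57.7%, and 60.9% to 64.5% on the other 10. The median SD over the 9 arrays was 1.23 for the 93 kept genes and 1.49 for all 6842 kept genes. This SD includes the stages and ages as well as the spread between pools.

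**Figure D1:**
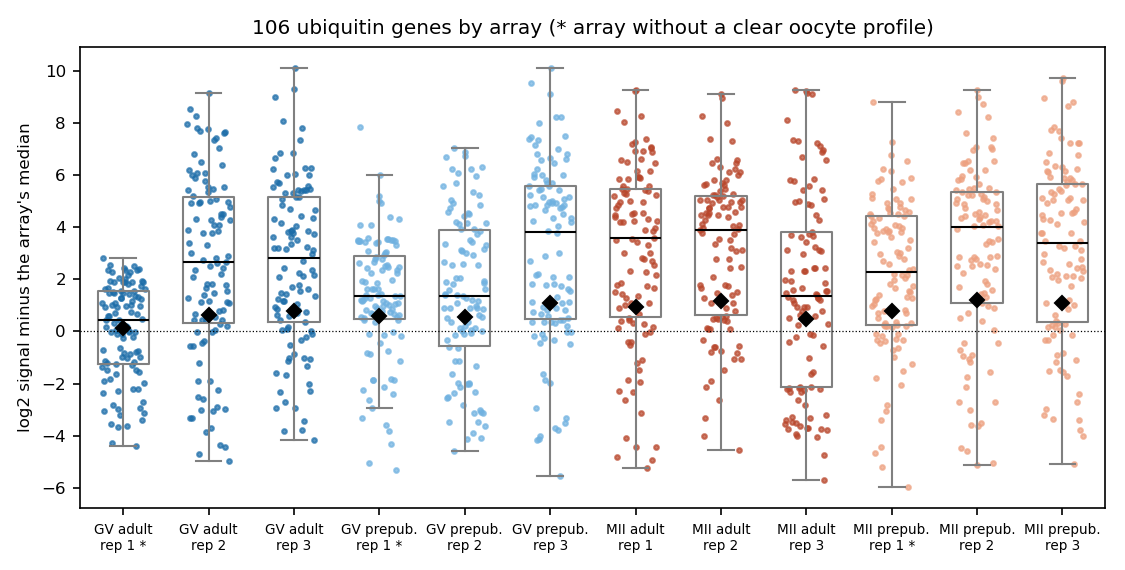
The 106 ubiquitin genes on each array, as log2 signal minus the array's median (dotted line at 0). Points are genes, boxes show the quartiles and the median with whiskers to 1.5 times the box height, and black diamonds mark the median of all 9155 genes. The box median of the ubiquitin genes lies above the diamond on every array, by least on GV adult replicate 1 (0.45 against 0.12).

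Several genes varied little among the pools with an oocyte profile. The F-box gene FBXL14 read 11.67 to 12.31 over the 9 arrays (mean 11.96, SD 0.26). UBE2K, an E2 that builds chains on its own, had a mean of 11.64 (SD 0.31), and COPS9, a small COP9 subunit, 14.62 (SD 0.37). UBE2D3, an E2 that works with many ligases, had a mean of 15.00 (SD 0.56), UBE2E1 15.33 (SD 0.56, 14.38 to 16.33), the protease USP10 13.57 (SD 0.57), and USP22, a histone deubiquitinase, 12.71 (SD 0.59). At the other end, UBE2Z had an SD of 2.98, UBE2C 3.16, USP38 2.84 and COPS3 3.34, and the values behind each are given below. Levels of different probe sets are not compared.

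No ubiquitin gene differed between stages or ages past the threshold of limma, an adjusted p of 0.05 over 14409 kept probe sets. This held in all 5 comparisons, over 12 and over 9 arrays, where 0 of 93 genes passed. Over 12 arrays 0 probe sets of any kind passed (0.0% called), and over 9 arrays 17 did in adult maturation (0.118% called). The unadjusted limma p under 0.05 was met in adult maturation by 13 of 93 genes (14.0%), against 7.93% of all probe sets. Without MII adult replicate 3 it was met by 5 (5.38%, against 7.23% of probe sets) and without GV adult replicate 1 by 7 (7.53%, against 7.84%), and leaving out each array in turn gave 5 to 15. Of the 13, 8 were higher (4.08% of all probe sets) and 5 lower at MII (3.85%); with quantile normalization it was 8 and 3. Over 9 arrays it was 17 of 93 (18.3%) against 11.4%, 10 higher (6.94%) and 7 lower (4.48%), and with median centring of the 9 arrays 4 and 4 (8.60% in all, against 8.95% of probe sets). In prepubertal maturation 2 genes met it, both higher at MII, against 3.41% of all probe sets (1.22% higher, 2.19% lower). Over 9 arrays 4 met it, against 6.99%: 3 higher (3.57%) and 1 lower (3.42%). With the replicate number as a block 7 met it, against 10.1%. Signals of the 3 adult MII pools that did not overlap those of the 3 adult GV pools were read for 14 genes higher (8.11% of probe sets) and 8 lower (7.19%), and in heifers for 6 higher (3.66%) and 3 lower (6.05%). The differences below are therefore measured values that did not pass the adjusted test.

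UBE2Z, an E2 charged by the E1 enzyme UBA6, read higher at MII at both ages. In GV oocytes it read 7.01, 3.40 and 2.47 in adults and 6.89, 3.62 and 1.86 in heifers. In MII oocytes it read 8.67, 8.83 and 8.96 in adults and 9.54, 7.86 and 7.37 in heifers. All 6 MII arrays were above all 6 GV arrays, and the 2 highest GV values were those of the arrays without a clear oocyte profile. All GV values lay below the median of their array and all MII values above it.

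The MII minus GV difference of UBE2Z was 4.53 in adults (SE 1.60, limma adjusted p = 0.563) and 4.13 in heifers (SE 1.60, limma adjusted p = 0.999). Over the 9 arrays it was 5.89 (SE 1.40, limma adjusted p = 0.128) and 4.87 (SE 1.53, limma adjusted p = 0.637). The difference between the ages, the interaction, was -0.39 (SE 2.26, limma adjusted p = 1). UBE2Z had 1 probe set on the array.

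USP21, a protease that acts on histone H2A among other targets, was also higher on all 6 MII arrays than on all 6 GV arrays. Its GV values were 6.11, 7.11 and 4.22 in adults and 5.78, 4.50 and 6.46 in heifers. Its MII values were 8.91, 9.13 and 9.58 in adults and 7.82, 9.36 and 8.05 in heifers. The difference was 3.39 in adults (SE 1.29, limma adjusted p = 0.582) and 2.83 in heifers (SE 1.29, limma adjusted p = 0.999). A second probe set of USP21 showed the same order, with GV values of 2.24 to 6.20 and MII values of 6.58 to 10.18. It differed by 4.09 in adults (SE 1.48, limma adjusted p = 0.563) and 2.88 in heifers (SE 1.48, limma adjusted p = 0.999). The remaining probe set, removed by the filter on low values, differed by 0.44 (SE 1.60) and 1.18 (SE 1.60) without the filter.

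UBE2Z and USP21 were the 2 of 93 genes (2.15%) whose 6 MII signals all exceeded their 6 GV signals, against 0.451% of all 14409 probe sets. In the opposite direction it was 0 of 93 genes, against 0.5% of probe sets.

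UBE2L6, the E2 of ISG15, was represented by 2 probe sets that both read lower at MII in adults. On the probe set with the higher mean, GV values were 10.47, 7.75 and 8.47 in adults and 7.49, 8.43 and 5.99 in heifers. MII values were 2.75, 6.64 and 4.87 in adults and 6.78, 6.31 and 6.49 in heifers. The stages did not overlap in adults, while in heifers they did. The difference was -4.14 in adults (SE 1.42, limma adjusted p = 0.563; over 9 arrays -3.35, SE 1.51, adjusted p = 0.413) and -0.78 in heifers (SE 1.42, limma adjusted p = 0.999). In heifers its sign depended on the scaling, with 0.13 after median centring. The interaction, 3.37 (SE 2.00, limma adjusted p = 1), did not pass.

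The second probe set of UBE2L6 separated the stages at both ages. It read 9.01, 12.33 and 8.48 in adult and 9.09, 10.64 and 8.71 in prepubertal GV oocytes. At MII it read 2.67, 5.93 and 2.11 in adults and 2.77, 0.53 and 7.11 in heifers. The lowest GV value, 8.48, was above the highest MII value, 7.11, over all 12 arrays. Its difference was -6.36 in adults (SE 1.74, limma adjusted p = 0.563; over 9 arrays -6.83, SE 1.97, adjusted p = 0.174). In heifers it was -6.01 (SE 1.74, limma adjusted p = 0.999; over 9 arrays -5.86, SE 2.16, adjusted p = 0.681). The 2 probe sets thus disagreed in heifers, by -0.78 against -6.01.

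UBA7 and USP18 of the ISG15 system had differences smaller than their standard errors over the 9 arrays. Their means there, 5.39 and 5.22, were below the filter of 5.57. UBA7, the E1 of ISG15, differed by -0.37 in adults (SE 1.91) and 0.91 in heifers (SE 2.09) over the 9 arrays. USP18, which removes ISG15, differed by -0.39 (SE 1.60) and -0.60 (SE 1.75), with 3 of 9 values above the array's median. ISG15 itself read 1.02 to 6.75 on the 9 arrays and was removed by the filter on low values.

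**Figure D2:**
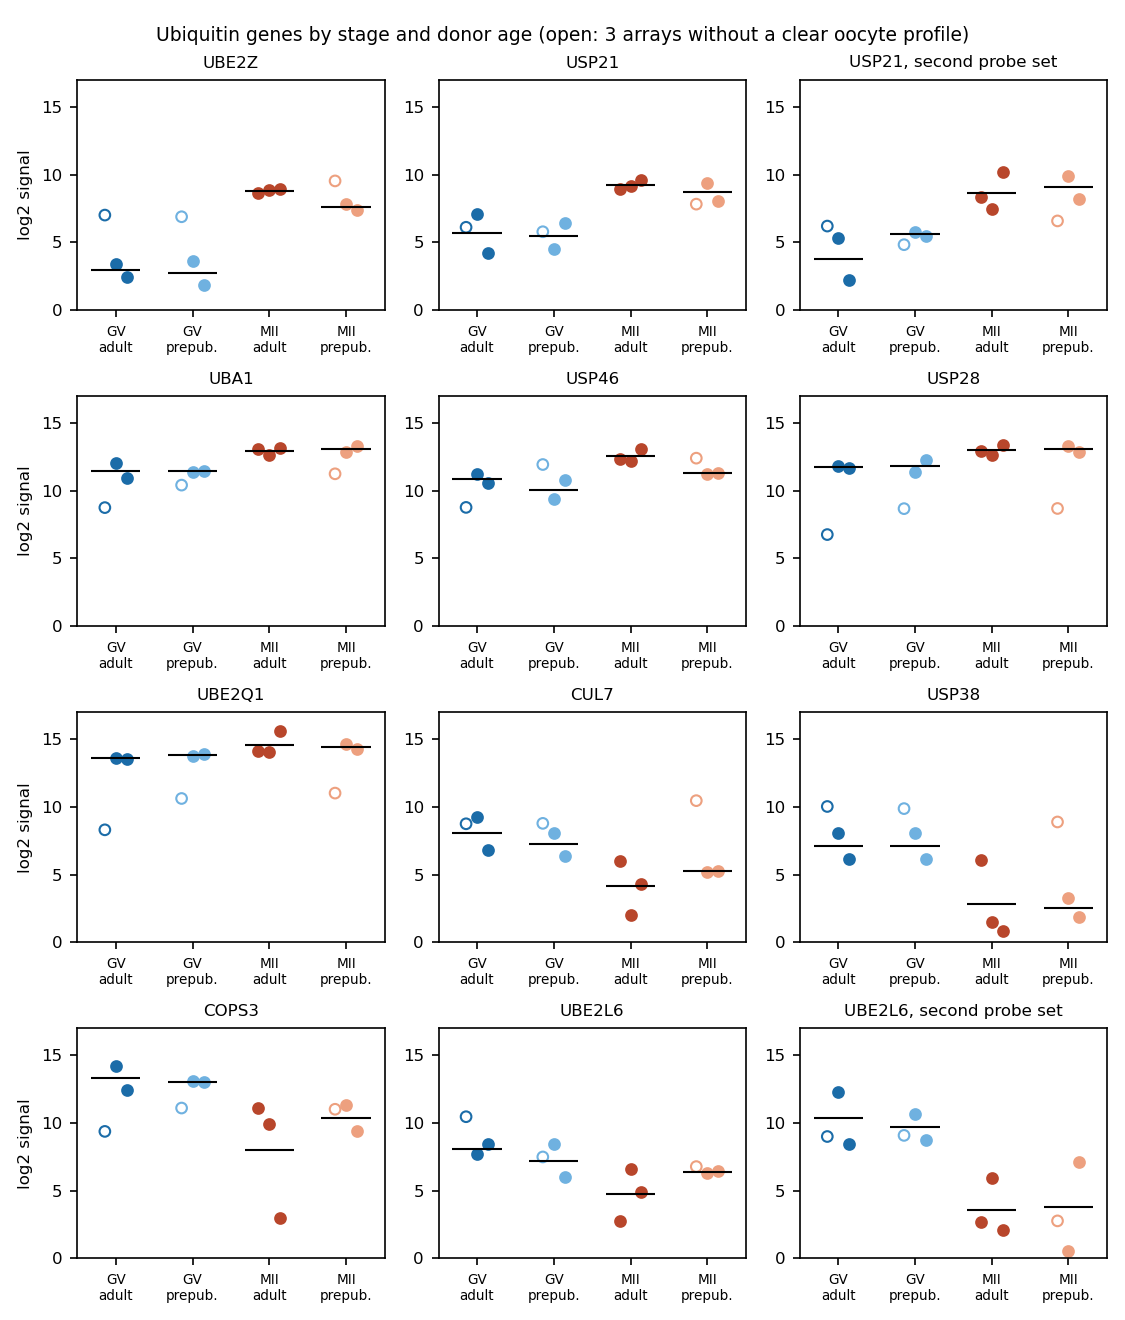
Log2 signal on every array for the ubiquitin genes whose GV and MII signals did not overlap over the 9 arrays, with the second probe set of USP21 and both probe sets of UBE2L6. Filled points are the 9 arrays with an oocyte profile, open points the 3 others, and bars the mean of the filled points. UBE2Z, both probe sets of USP21 and the second of UBE2L6 separate the stages with the open points included. UBA1, CUL7, USP38 and others separate them only among the filled points.

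Over the 9 arrays, 6 of 93 genes (6.45%) had all MII above all GV signals, against 3.82% of probe sets: UBE2Z, USP21, UBA1, USP28, USP46 and UBE2Q1. Lower on every MII array were 3 (3.23%), against 3.53%: CUL7, USP38 and COPS3. USP46 was named after its values were seen, as were COPS7B, FBXO32, UBA6, UBE2E1, UBE2V1 and USP19 in other paragraphs.

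UBA1, the main ubiquitin E1, read 12.06 and 10.93 in adult and 11.43 and 11.45 in prepubertal GV oocytes of the 9 arrays. At MII it read 13.07, 12.66 and 13.19 in adults and 12.90 and 13.32 in heifers. The difference was 1.48 in adults (SE 0.59, limma adjusted p = 0.345) and 1.67 in heifers (SE 0.64, limma adjusted p = 0.681). Over 12 arrays the stages overlapped, since MII prepubertal replicate 1 read 11.26, and the differences were 2.39 (SE 1.14) and 1.39 (SE 1.14).

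UBA3, the catalytic subunit of the NEDD8 E1, read 7.66, 7.96 and 9.59 in adult GV oocytes and 10.38, 10.52 and 11.94 in adult MII oocytes, without overlap. In heifers the GV pools were at 10.48, 10.61 and 10.48 and the MII pools at 9.12, 9.96 and 8.90, again without overlap but in the opposite direction. The differences were 2.54 in adults (SE 1.03, limma adjusted p = 0.592) and -1.19 in heifers (SE 1.03, limma adjusted p = 0.999). Their difference, the interaction, was -3.73 (SE 1.46, limma unadjusted p = 0.0192, adjusted p = 1) and -3.28 over 9 arrays (SE 1.41, unadjusted p = 0.0352). The other subunit of that enzyme, NAE1, is outside the 106 and was named after its values were seen. On the 9 arrays it read 11.24 and 12.19 at GV and 9.90 to 11.53 at MII in adults, and 9.89 and 11.67 at GV against 11.51 and 10.99 at MII in heifers, and the stages overlapped at both ages. UBA3 was the 1 ubiquitin gene of 93 with an unadjusted interaction p under 0.05, against 1.21% of all probe sets (3.06% over 9 arrays). UBA2, the catalytic subunit of the SUMO E1, differed by -1.19 (SE 0.91) in adults over the 9 arrays. In heifers it differed by 0.27 (limma unadjusted p = 0.788). UBA6 differed by -2.60 (SE 1.63) in adults and -0.53 (SE 1.78) in heifers over the 9 arrays. Its second probe set went the other way in adults, with GV pools (6.57 and 3.48) below all MII pools (6.93, 7.17 and 7.11). In heifers its GV pools (6.98 and 1.52) overlapped its MII pools (6.64 and 6.85). The 2 probe sets of UBA6 correlated at -0.34 over the 9 arrays.

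Of the E2 enzymes of the anaphase-promoting complex, UBE2C had an SD of 3.16 over the 9 arrays and UBE2S one of 1.40, against a median of 1.49 for all kept genes. UBE2C, which places the first ubiquitins on the targets of that complex, read 11.83 and 11.54 in adult and 7.41 and 10.60 in prepubertal GV oocytes of the 9 arrays. At MII it read 12.80, 12.36 and 3.68 in adults and 12.98 and 13.04 in heifers. The value of MII adult replicate 3 stood far below the other MII arrays. The difference in heifers was 4.01 (SE 2.15, limma adjusted p = 0.746), and in adults -2.08 (SE 1.97, limma adjusted p = 0.756). Without MII adult replicate 3 as well, over 8 arrays, the adult difference was 0.89 (SE 0.86) and that in heifers 4.01 (SE 0.86, limma adjusted p = 0.166). UBE2S, which extends the chains, differed by -1.43 (SE 1.38) in adults and 1.45 (SE 1.52) in heifers.

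Among the other E2 enzymes, UBE2Q1 stood between 13.57 and 13.89 at GV and between 14.06 and 15.62 at MII over the 9 arrays. Its difference was 1.01 in adults (SE 0.47, limma adjusted p = 0.428) and 0.65 in heifers (SE 0.51). UBE2W, which joins ubiquitin to the first residue of proteins, differed by -1.42 in adults over the 9 arrays (SE 0.52, limma adjusted p = 0.292) and by 0.09 over 12, where GV adult replicate 1 read 9.33 against 13.69 and 14.04. UBE2N, the E2 of lysine-63 chains, differed by 0.69 (SE 0.82) and 0.04 (SE 0.90), its partner UBE2V1 by -0.99 (SE 0.80) and 1.12 (SE 0.87). Counted over all 25 kept E2 genes, 12 were higher at MII in adults and 15 in heifers over the 9 arrays, with median differences of -0.04 and 0.54, against -0.11 and -0.13 for all kept genes. After median centring of the 9 arrays, 21 of 25 (84.0%) were higher in heifers, as were 67.4% of all kept genes. The count in heifers thus depends on the scaling.

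Of the ligases in the UBE3 and UBE4 families, UBE4A, which lengthens chains, read 6.09, 7.05 and 11.66 in adult GV oocytes and 11.30, 11.03 and 10.98 at MII. The difference in adults was 2.83 over 12 arrays (SE 1.30, limma adjusted p = 0.612). Also in adults, it was 1.74 over the 9 arrays (SE 1.22). Its relative UBE4B differed by 1.88 (SE 1.77) in adults and 2.12 (SE 1.93) in heifers over the 9 arrays. UBE3A, the ligase lost in Angelman syndrome, differed by -1.38 (SE 1.24) in adults and -1.23 (SE 1.36) in heifers over the 9 arrays. UBE3B, measured by 6 probe sets, differed on the brightest by 0.17 (SE 0.89) and -1.52 (SE 0.98). Over the 9 arrays this probe set correlated with the others at -0.01, -0.03, -0.16, -0.25 and -0.49. For the one at -0.16, adult GV pools (4.26 and 6.98) lay below all adult MII pools (7.00 to 10.57). Heifer GV pools (6.78 and 9.30) likewise lay below heifer MII pools (10.21 and 10.75). The direction in heifers thus depended on the probe set. UBE3C was removed by the filter.

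Among 21 kept F-box genes, the receptors that choose what an SCF ligase marks, the 9 arrays gave 8 higher and 13 lower at MII in adults (median -0.51) and 7 and 14 in heifers (median -0.41). All kept genes had medians of -0.11 and -0.13 there. After median centring of the 9 arrays 16 of 21 (76.2%) were higher in heifers, against 67.4% of all kept genes. The direction in heifers thus depends on the scaling. In adults 8 of 21 were still higher after this centring, while over 12 arrays 13 were. FBXO32, the ligase receptor known from muscle wasting, read 6.24 and 6.29 in adult GV oocytes of the 9 arrays and 8.90, 10.58 and 7.61 at MII. Its difference was 2.77 (SE 1.27, limma adjusted p = 0.426), and 0.58 (SE 1.39) in heifers, whose GV values were 9.35 and 7.84. FBXW7, the receptor for cyclin E, differed by -0.79 (SE 0.75) and -0.15 (SE 0.82), and FBXO15, a gene of early mouse embryos and stem cells, by -0.51 (SE 0.76) and -0.08 (SE 0.83). FBXW11, a receptor of the beta-TrCP kind, read 9.41 to 11.69 on 8 of the 9 arrays and 3.89 on MII adult replicate 3.

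Of the cullins, the scaffolds of these ligases, CUL7 read 9.28 and 6.85 in adult and 8.05 and 6.40 in prepubertal GV oocytes of the 9 arrays. At MII it read 6.01, 2.03 and 4.33 in adults and 5.22 and 5.30 in heifers, below every GV value. The difference was -3.94 in adults (SE 1.59, limma adjusted p = 0.353) and -1.96 in heifers (SE 1.74). On MII prepubertal replicate 1 it read 10.46, so that the heifer difference over 12 arrays was -0.75 (SE 1.62). A second probe set gave -2.68 in adults and 0.47 in heifers over the 9 arrays. CUL1, the scaffold of SCF ligases, differed by 2.01 (SE 1.31) and 0.02 (SE 1.44), and CUL5 by 2.02 (SE 1.84) and 1.60 (SE 2.01). CUL2 was removed by the filter, and the other cullins, SKP1, SKP2 and RBX1 are not analysed here.

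The COP9 signalosome, which takes NEDD8 off cullins, was represented by 7 subunit genes. In adults over the 9 arrays all 7 read lower at MII (median -2.42, against -0.11 for all kept genes), and 2 had an unadjusted limma p under 0.05. For 6 of the 7 the lowest of the 9 values was that of MII adult replicate 3, and without it, over 8 arrays, 6 of 7 read lower with a median of -1.01. Over 12 arrays 5 of 7 did (median -0.44), and after quantile normalization or median centring of the 12 arrays 3 of 7. Over the 9 arrays all 7 still read lower after median centring (median -2.32) and after quantile normalization (median -2.39). The direction of the list thus depended on the arrays, and on the scaling when all 12 arrays were used. GV adult replicate 1 read 5.24 for COPS9, against 14.81 and 15.21 on the other adult GV arrays. For COPS8 it read 6.42, against 12.45 and 12.88.

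COPS3 read 14.24 and 12.48 in adult and 13.07 and 13.04 in prepubertal GV oocytes of the 9 arrays. At MII it read 11.08, 9.96 and 2.95 in adults and 11.34 and 9.43 in heifers. Every MII value was lower than every GV value. The difference was -5.36 in adults (SE 1.71, limma adjusted p = 0.217) and -2.68 in heifers (SE 1.88). Without MII adult replicate 3, whose 2.95 was the lowest value, it was -2.84 in adults (SE 0.78, limma adjusted p = 0.125). COPS8 differed by -2.53 in adults (SE 0.85, limma adjusted p = 0.254) and -1.13 in heifers (SE 0.93) over the 9 arrays.

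At MII all 7 COP9 genes read higher in heifers than in adults, with a median difference of 1.03 over 12 arrays and 1.23 over 9. This comparison shares the 3 MII adult arrays with adult maturation. COPS5, the subunit that cuts off NEDD8, read 10.62, 9.87 and 9.42 in heifers and 7.41, 7.85 and 3.13 in adults, without overlap. Its difference, 3.84 (SE 1.35, limma unadjusted p = 0.0101, adjusted p = 1), was the 1 of 93 with an unadjusted p under 0.05 between ages at MII, against 2.66% of all probe sets (1.91% higher). Over 9 arrays it was 3.51 (SE 1.51, unadjusted p = 0.0343), again the 1 gene, against 2.56% (1.2% higher). Leaving out MII adult replicate 3 alone gave 2.34 (unadjusted p = 0.0746), and 0 of 93 genes then met the unadjusted threshold (1.71% of probe sets). Heifer and adult signals at MII did not overlap for 4 genes higher (4.78% of probe sets) and 3 lower (5.18%), and over 9 arrays for 10 (9.24%) and 8 (9.89%). Without MII adult replicate 3 and the 3 arrays without a clear oocyte profile, 4 of 7 genes read higher (median 0.13).

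**Figure D3:**
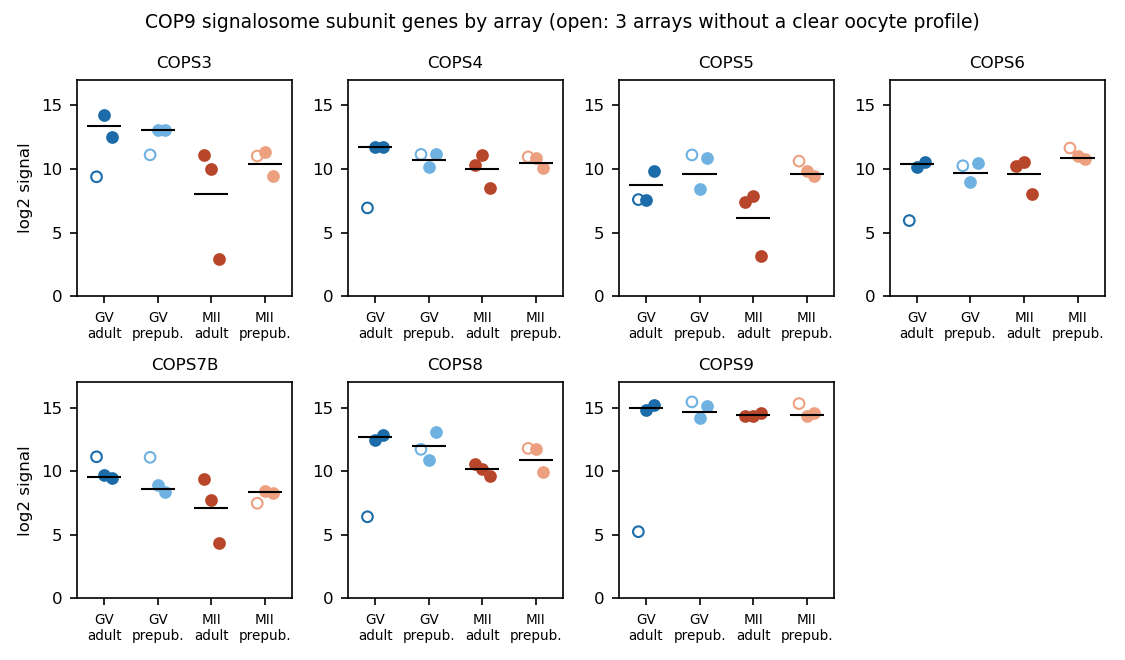
Log2 signals of the 7 COP9 signalosome genes on every array. Filled points are the 9 arrays with an oocyte profile, open points the 3 others, and bars the mean of the filled points. Among filled points the adult mean is lower at MII than at GV for all 7, also after median centring of the 9 arrays. For 6 of the 7 the lowest filled point is MII adult replicate 3. Over 12 arrays the adult mean is lower at MII for 5, and for 3 after median centring of the 12.

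Of the ubiquitin-specific proteases, 11 of 23 kept genes were higher at MII in adults and 13 in heifers over the 9 arrays (medians -0.09 and 0.41). All kept genes had medians of -0.11 and -0.13 there. Over 8 arrays 17 of 23 were higher in adults, against 51.1% of all kept genes. After median centring of the 9 arrays 20 of 23 were higher in heifers, against 67.4%. The direction thus depends on the arrays and the scaling. On the 9 arrays USP38 read 8.05 and 6.15 in adult and 8.08 and 6.15 in prepubertal GV oocytes. At MII it read 0.81 to 6.05 in adults and 3.24 and 1.85 in heifers, below every GV value. Its difference was -4.31 in adults (SE 1.90, limma adjusted p = 0.402) and -4.57 in heifers (SE 2.08, limma adjusted p = 0.701). The 3 arrays without a clear oocyte profile read 8.89 to 10.03, so over 12 arrays the heifer difference was -3.38 (SE 1.93).

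USP37, a protease that stabilises cyclin A, read 5.39, 8.94 and 6.25 in adult GV and 9.75, 9.97 and 11.59 in adult MII oocytes, without overlap. The difference was 3.58 (SE 1.29, limma adjusted p = 0.563), and 0.89 (SE 1.29) in heifers, where the stages overlapped. On a second probe set it was 4.22 (SE 1.48) in adults and 2.32 (SE 1.48) in heifers. USP2 differed by 2.24 in adults (SE 0.80, limma adjusted p = 0.282) and 0.81 in heifers (SE 0.87) over the 9 arrays. USP28, which protects MYC, differed by 1.25 (SE 0.57) and 1.27 (SE 0.62), and 1 of its 2 other kept probe sets by 1.62 and 1.08, the other by -0.28 and 0.31. USP46 differed by 1.64 (SE 0.74) and 1.19 (SE 0.81), but its second probe set by -0.36 and 0.39. USP19 differed by -2.30 (SE 1.03) and -0.15 (SE 1.13). USP14, the protease of the proteasome, read 6.97 to 11.26 with differences of 0.21 (SE 1.17) and -0.67 (SE 1.29).

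Read from the probe set with the highest mean, all 5 kept OTU proteases had differences below their standard errors over the 9 arrays. OTUB1, which cuts lysine-48 chains, differed by 0.17 (SE 1.59) in adults and 0.91 (SE 1.74) in heifers, and OTUD4 by 0.72 (SE 0.86) and -0.51 (SE 0.94). OTUD5 differed by -0.85 (SE 1.48) and 0.05 (SE 1.62), and OTUB2 was removed by the filter.

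Maturation differences at the 2 ages come from separate arrays. Over the 9 arrays 62 of 93 genes (66.7%) had the same sign at both ages, against 63.2% of all kept genes. An unadjusted p under 0.05 with the same sign at both ages was met by 4 genes (4.3%), UBE2Z, USP21, UBA1 and USP38, against 2.09% of all kept genes, and 0 had opposite signs. USP38 had a mean of 4.65 over the 9 arrays, below the filter of 5.57, which it passed through its higher values on the 3 other arrays, as did 6 further genes.

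**Figure D4:**
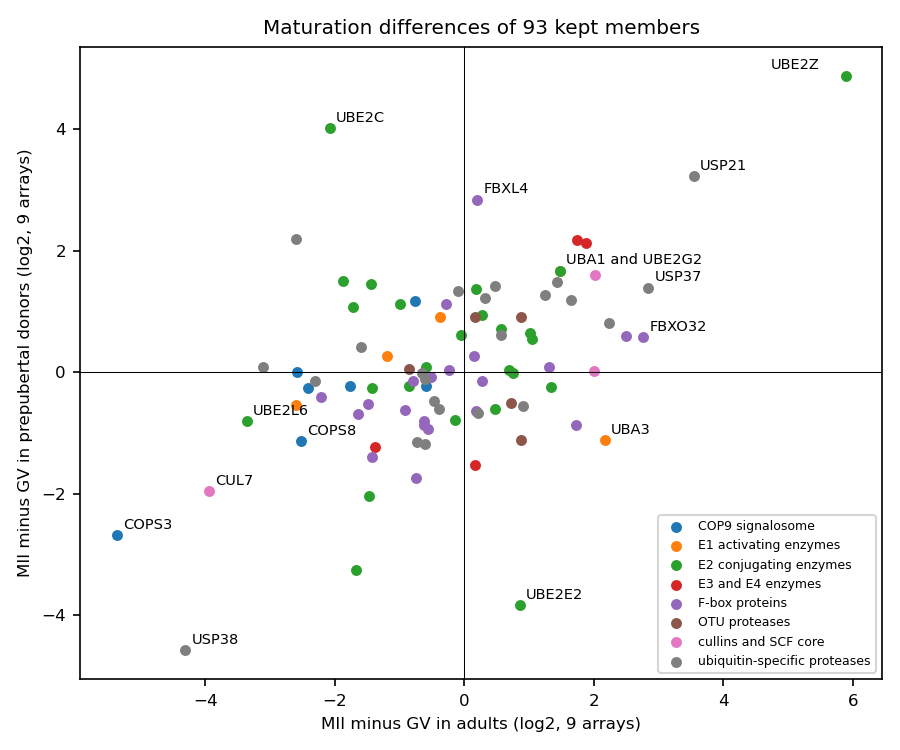
MII minus GV differences (log2, 9 arrays) of the 93 kept ubiquitin genes in adults (horizontal) and heifers (vertical), coloured by role. UBE2Z (5.89 and 4.87) and USP21 (3.54 and 3.23) lie far to the upper right, USP38 (-4.31 and -4.57), COPS3 (-5.36 and -2.68) and CUL7 (-3.94 and -1.96) to the lower left, and UBE2C (-2.08 and 4.01) to the upper left.

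Between ages at GV, 0 of 93 genes had an unadjusted limma p under 0.05, against 2.51% of all probe sets over 12 arrays (1.98% higher in heifers) and 4.64% over 9. The 2 ages did not overlap at GV for 3 genes higher in heifers, against 3.8% of probe sets. Higher values in heifers were read for 57 of 93 genes over 12 arrays (median 0.48, all kept genes 0.40) and 38 of 93 over 9 (median -0.18, all kept genes 0.18). Leaving out GV adult replicate 1 alone gave 33 of 93 (median -0.23), and leaving out GV prepubertal replicate 1 alone 56 of 93 (median 0.68). Between ages at MII it was 47 of 93 (median 0.02, all kept genes 0.08) and 58 of 93 (median 0.20, all kept genes 0.20), with 31 of 93 (median -0.46) when MII adult replicate 3 alone was left out of the 12.

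On single arrays without a clear oocyte profile some genes lay far outside the range of the 9. GV adult replicate 1 read 5.24 for COPS9, 8.96 below the lowest of the 9, and 7.48 for UBE2E1, 6.91 below it. On both prepubertal replicate 1 arrays, 9 of 106 genes (8.49%) were above all 9 arrays, against 13.2% of all genes, and 17 (16.0%) below them, against 8.49%. USP18 read 11.12 at GV and 11.17 at MII, against 4.04 to 6.98 on the 9 arrays and 3.91 on GV adult replicate 1. Its other kept probe set also exceeded the 9 arrays, at 8.75 and 7.56 against 2.29 to 5.95, but did so on GV adult replicate 1 as well (8.66). FBXO11 read 11.05 and 12.28 (highest of the 9, 8.63), UBA7 9.50 and 10.38 (7.93), and OTUD5 10.30 and 11.45 (9.00). USP3 and CUL2, which the filter removed, also read higher on both.

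Lower on both arrays than on all 9 were USP2, at 5.22 and 7.20 (lowest of the 9, 10.07), FBXL14, at 8.84 and 7.71 (11.67), and USP28, at 8.68 and 8.69 (11.37). UBE2Q1 read 10.62 and 11.02 (13.57), FBXO15 9.03 and 7.21 (11.10), and FBXW7 9.26 and 6.72 (10.82). These genes had SDs of 0.26 to 1.21 over the 9 arrays. Beside them, 4 of 14 interferon response genes with ISG15 were above the 9 arrays on both, and ISG15 itself was measured at 9.53 and 9.45 against 1.02 to 6.75. The values of the oocyte, cumulus or granulosa, and theca or stroma markers on the same arrays are given above. Their part in these differences was not tested.

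**Figure D5:**
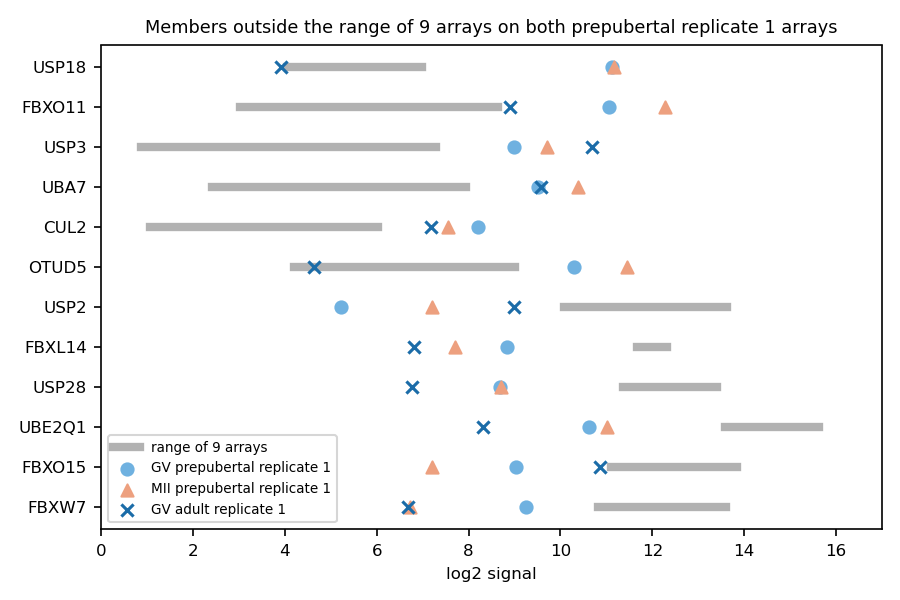
Log2 signals of the 12 ubiquitin genes farthest outside the range of the 9 arrays (grey bars, lowest to highest) on both prepubertal replicate 1 arrays, with GV adult replicate 1 as crosses. USP18 lies 4.14 above the grey bar on the lower of the 2 arrays. On GV adult replicate 1 USP18 and OTUD5 read 3.91 and 4.64, unlike on the prepubertal arrays.

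Among the 9 arrays MII adult replicate 3 held the lowest value of 28 of the 106 genes, and each of the other 8 that of 5 to 15. These included COPS3 (2.95), COPS5 (3.13), UBE2C (3.68), UBE2F (2.81), FBXW11 (3.89), USP38 (0.81) and USP47 (3.31). Adult maturation and the age comparison at MII both rest on MII adult replicate 3. Among the 9 arrays it also had the lowest best Spearman correlation with another array (0.553). Its mean of the Cre spike-in controls was the highest of the 9 (19.954). The share of all genes with their lowest value on this array was not counted. Whether the 28 are particular to ubiquitin genes or reflect the whole array was therefore not tested.

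Outside the 106, 87 further genes of the pathway passed the filter, and 0 passed the adjusted limma test in any comparison. In adult maturation over the 9 arrays 6 were higher and 4 lower with unadjusted p under 0.05, together 11.5% of the 87, close to the 11.4% of all probe sets. The ubiquitin receptor NBR1 read 7.41 and 7.88 in adult GV and 10.76, 12.47 and 12.69 in adult MII oocytes (difference 4.33, SE 0.88, limma adjusted p = 0.0729). Over 12 arrays its adult difference was 4.47 (SE 1.15, limma adjusted p = 0.563). In heifers over the 9 arrays it was 2.10 (SE 0.96, limma adjusted p = 0.701). NEDD8 itself was at 12.76 and 14.28 in adult GV pools and at 11.30, 11.32 and 9.80 in adult MII pools (difference -2.71, SE 0.76, limma adjusted p = 0.173; -1.61, SE 1.22, over 12 arrays). UCHL1, a deubiquitinase abundant in oocytes, differed by -1.17 (SE 0.66), but by 1.19 over 12 arrays, and CDC20, the activator of the anaphase-promoting complex, by 0.06 (SE 0.91).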

How the data were processed

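Signals were used as deposited. They are log2 values, and per the submitters' processing notes the authors made them with MAS5, of unstated version. Trimmed by 2% at each end, the linear signals averaged 500.031 to 500.285 per array, so arrays were not scaled again. Detection calls were not used here. Of 24128 probe sets 112 controls were left out, and 14409 with a mean above 5.57 were kept. Symbols came from the platform annotation (13292 probe sets with 1 symbol, 86 with several, 10638 with none), and 99.8% of Entrez identifiers matched a cattle gene table.

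Group means of all 12 arrays were fitted with limma 3.58.1 (R 4.3.3, intensity trend, 8 residual degrees of freedom, 5 over 9 arrays), with Benjamini-Hochberg adjustment over all kept probe sets. The fit was tested on simulated data. The number of arrays limits precision: the median residual SD was 1.86. P-values measure the spread between pools, which may be technical.

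The members, gene lists, the 9 arrays and the rule for naming genes (UBE2L6, core and meiotic members, smallest p per comparison, lowest and highest SD per role, farthest on the prepubertal replicate 1 arrays) were chosen with earlier results of these data known. Alternatives were other scalings, filters, a pseudocount of 32, fewer arrays, the mean of probe sets, and the replicate number as a block. Same-numbered prepubertal GV and MII arrays deviated together (correlations 0.609, 0.149 and 0.306), which comes from the data, since the labels state no pairing; those of adults did not (-0.105, 0.015 and -0.085).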

Additional observations from a re-analysis of the deposited data

How the results depend on the processing

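The count of ubiquitin genes past the adjusted threshold was 0 in all 124 alternative computations over the 5 comparisons. Of 614 alternative values for 25 differences of single probe sets, 603 kept their sign and 11 did not. These differences were picked for small unadjusted p in the same data, with UBE2L6 and second probe sets of UBE2L6, USP21 and USP37 added. The alternatives reuse the same arrays, so a kept sign is no independent support. COPS8 in adult maturation read 0.43 with quantile normalization and 0.34 with median centring, and -2.53 to 0.71 when single arrays were left out. UBE2W read -1.42 over 9 arrays, -1.24 and -1.32 with quantile normalization and median centring of them, -1.38 over 8 arrays, and -1.42 to 0.93 when single arrays were left out. UBE2L6 in heifers read 0.13 with median centring. Over all probe sets, adult maturation had 17 calls over 9 arrays, 16 with quantile normalization of them, 69 over 8 arrays and 7 in the compared groups with the replicate number as a block, and prepubertal maturation had 5 over 8 arrays. When single arrays were left out there were 0 calls throughout. The cause of these changes was not tested. Median centring moved the median of all probe sets from -0.10 to 0.68 in adult and from -0.29 to 0.62 in prepubertal maturation. With the replicate number as a block no ubiquitin gene was called either, while probe sets with an unadjusted limma p under 0.05 in prepubertal maturation went from 492 to 1455. UBE2Z stayed between 2.93 and 6.03 in adults and 2.47 and 5.68 in heifers over the other settings, and the second probe set of UBE2L6 between -7.15 and -4.35 and between -6.01 and -3.64. Detection calls were not used, so the lowest signals may be background.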
